A study of Mus musculus with 9 samples.

Results

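The genes described here are 9 CXC chemokines, small secreted attractants of white blood cells, in mouse peritoneal macrophages stimulated with bacterial lipopolysaccharide (LPS). They were chosen by gene name, not by their values: Cxcl1, Cxcl2, Cxcl3, Cxcl5, Cxcl9, Cxcl10, Cxcl11, Cxcl13 and Cxcl16. They are 9 of the 15343 genes in the deposited table, and 9 of 9 passed the filter on low values. RNA sequencing gave 9 libraries in 3 groups of 3 libraries, all from primary macrophages of the mouse peritoneal cavity, labelled wild type, with the strain written as CF7B1/6. All 9 cultures received LPS at 100 ng/ml for 6 h. In the DHA group, docosahexaenoic acid (DHA), an omega-3 fatty acid, was added at 100 µM for 1 h before LPS. In the cpdA group, cpdA, a small molecule agonist of the fatty acid receptor Gpr120, was added at 10 µM for 1 h before LPS. The labels name no agent before LPS for the LPS group, and cells without LPS were not analysed here, so no value below measures induction by LPS itself. The labels do not say whether libraries of a group came from separate animals or cultures, so p-values measure only the spread between these libraries, which may be technical.

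CXC chemokines act through receptors coupled to G proteins. The ligands of CXCR2 (Cxcl1, Cxcl2, Cxcl3 and Cxcl5) recruit neutrophils, and macrophages make the first 3 soon after Toll-like receptors sense LPS, through NF-kB. The ligands of CXCR3 (Cxcl9, Cxcl10 and Cxcl11) recruit activated T cells and NK cells and are classical interferon-induced genes, which LPS also raises through the interferon-beta that macrophages secrete. Cxcl13 draws B cells through CXCR5, and Cxcl16 is made as a membrane protein that binds CXCR6 and oxidized lipoprotein.

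The libraries held 13797079 to 37572822 reads, recovered from the normalized values. Values below are the authors' normalized counts, which are reads divided by a factor for library depth. They can be compared between libraries for one gene but not between genes of different length. Libraries LPS 3 and cpdA 3 stood apart from the other 7. The first principal component, with 40.5% of the variance, set cpdA 3 apart, and the second, with 28.8%, set LPS 3 apart. The changes of the 9 chemokines are therefore given with and without these libraries, a choice made after seeing the data. The macrophage gene Lyz2 (lysozyme) had 210386 normalized counts in LPS 3 and 269048 in cpdA 3, against 447053 in DHA 1, the lowest of the other 7. The summed level of 10 of 10 macrophage markers was 312905 in LPS 3, 374326 in cpdA 3 and 543022 to 561621 in the others, a gap that came from Lyz2. The other 9 markers together had 102520 in LPS 3 and 105278 in cpdA 3, within the range of 94469 to 108189 in the other 7. That sum hid shifts of single markers in both directions. Fcgr1 had 10269 in LPS 3 and 957.1 in cpdA 3, against 2107.5 to 4597.5 in the other 7. Mertk had 10614.8 and 4300.9, against 5467.8 to 6929.9. Csf1r had 21815.9 in cpdA 3 and at most 11559.3 in the other 8. For 13 of 13 markers of mesothelial, fibroblast and endothelial cells the sum was 50094.5 in LPS 3, 37538.9 in cpdA 3 and 28976 to 35674 in the others. Of 5 nuclear RNAs looked up, Neat1 had 46514 in cpdA 3 and 7382 to 15888 in the other 8. Malat1 (4341.6), Meg3 (172) and Snhg11 (26.3) were also highest in cpdA 3, with 3964.4, 143.2 and 20.5 in the next library. Kcnq1ot1 had 2744.4 in cpdA 3, within the range of 1891.8 to 5154.9 in the other 8. The part of these differences in the chemokine values was not tested. In such bulk samples fewer cells of a type and less RNA per cell cannot be told apart.

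Cxcl9, Cxcl10 and Cxcl11 were lower in all 3 DHA libraries and in all 3 cpdA libraries than in any LPS library. Of all genes, 15.0% were lower in this way with DHA and 12.2% with cpdA. Cxcl1 and Cxcl2 overlapped between the groups. Cxcl3 was higher in all 3 DHA libraries than in any LPS library, beside 13.0% of all genes, and higher in 2 of 3 cpdA libraries. None of the 9 genes passed the test over all 9 libraries, which was limma on log2(value + 1) with a Benjamini-Hochberg adjusted p under 0.05 over 13895 genes. Without LPS 3 and cpdA 3, 6 of 9 passed for DHA against LPS, beside 6.79% of all genes, and 3 of 9 for cpdA against LPS, beside 1.60%.

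**Figure D1:**
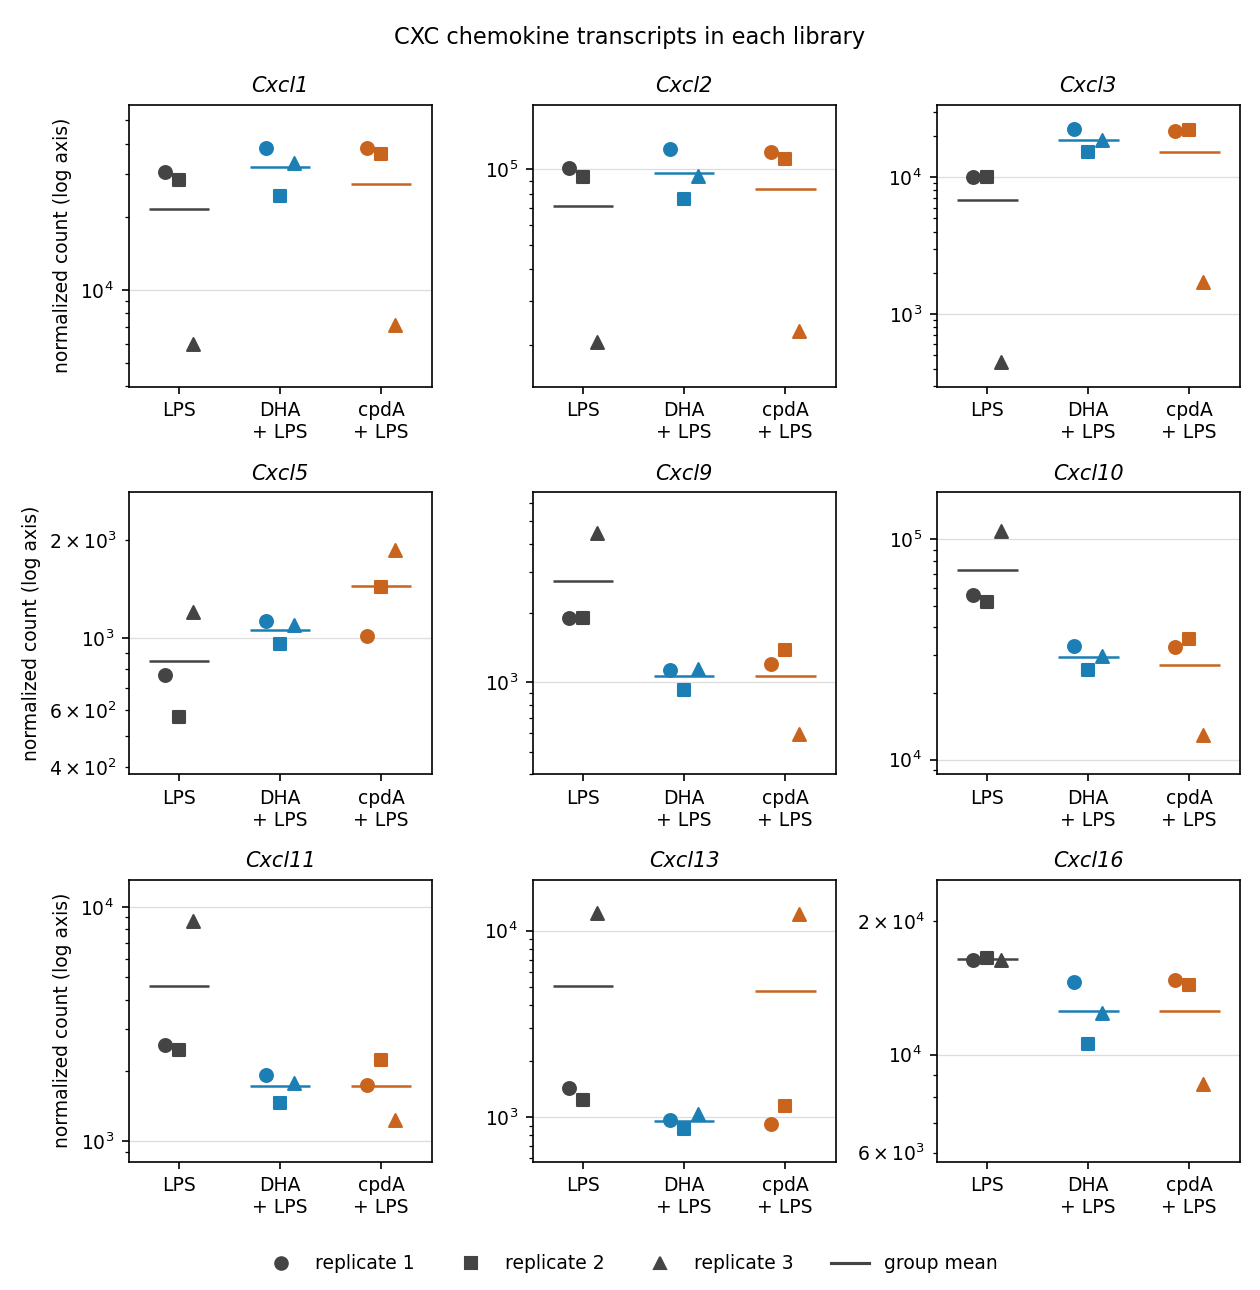
Normalized count of each of the 9 chemokines (log axis, scaled for each gene) in the LPS, DHA + LPS and cpdA + LPS groups. Symbols are libraries, with the shape giving the replicate number, and bars are group means. For Cxcl1, Cxcl2 and Cxcl3 the third LPS and the third cpdA library lie far below the rest, for Cxcl13 far above, and for Cxcl9, Cxcl10 and Cxcl11 every LPS library lies above every DHA and cpdA library.

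Cxcl1 (Entrez gene 14825), a main neutrophil attractant of the mouse, had normalized counts of 30501, 28283 and 5979.7 in LPS 1, 2 and 3. It had 38596, 24442 and 33325 in DHA 1 to 3, and 38646, 36243 and 7130.4 in cpdA 1 to 3. The groups overlapped, and LPS 3 and cpdA 3 were the low libraries. Cxcl2 (Entrez 20310), also known as MIP-2, had 101619, 93312 and 20479 in LPS, 120512, 76359 and 94046 in DHA, and 117290, 109958 and 22645 in cpdA. Its groups overlapped in the same way. Over all 9 libraries the log2 change of Cxcl1 was 0.87 (SE 0.76, limma adjusted p = 0.616) for DHA against LPS and 0.32 (adjusted p = 0.885) for cpdA against LPS. The log2 change of Cxcl2 was 0.72 (SE 0.74, limma adjusted p = 0.679) and 0.20 (adjusted p = 0.930). In the 7 libraries without LPS 3 and cpdA 3, the change of Cxcl1 with DHA was 0.10, with a 95% interval from -0.25 to 0.46, and that of Cxcl2 was -0.03, from -0.39 to 0.33. With cpdA the changes in these 7 libraries were 0.35 for Cxcl1 (-0.04 to 0.74) and 0.22 for Cxcl2 (-0.17 to 0.61). These intervals leave room for changes of either sign.

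Cxcl3 (Entrez 330122), the third CXCR2 ligand of this cluster, had normalized counts of 9960.1, 10114 and 443.1 in LPS 1 to 3. In DHA 1 to 3 it had 22508, 15205 and 18735, and in cpdA 1 to 3 it had 21897, 22003 and 1726.7. All 3 DHA libraries were above all 3 LPS libraries, while cpdA 3 lay below LPS 1 and LPS 2. The log2 change over all 9 libraries was 2.39 (SE 1.30, limma adjusted p = 0.426) with DHA and 1.41 (adjusted p = 0.649) with cpdA. Without LPS 3 and cpdA 3, Cxcl3 rose by 0.89 with DHA (SE 0.14, limma adjusted p = 0.00389) and by 1.13 with cpdA (SE 0.15, adjusted p = 0.00452). Between the cpdA and LPS libraries of the same number, a pairing the labels do not give, the log2 ratio was 1.14, 1.12 and 1.96. For Cxcl1 these ratios were 0.34, 0.36 and 0.25, and for Cxcl2 0.21, 0.24 and 0.15. The matching by number was taken up from these same data, so the ratios are a description and not a test.

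Ratios within a library do not depend on its depth factor. Cxcl1 stood at 29.2 to 35.4 normalized counts per 100 of Cxcl2 in all 9 libraries, LPS 3 and cpdA 3 included. Within this narrow range it had 29.2 to 30.3 in LPS, 32.0 to 35.4 in DHA and 31.5 to 33.0 in cpdA. Neither pretreated group overlapped LPS in this ratio. Cxcl3 stood at 9.80, 10.8 and 2.16 per 100 of Cxcl2 in the LPS libraries, at 18.7, 19.9 and 19.9 in the DHA libraries, and at 18.7, 20.01 and 7.62 in the cpdA libraries. The DHA values did not overlap those of LPS, and cpdA 3 lay between LPS 3 and LPS 1. Cxcl2 and Cxcl3 transcripts share 75 stretches of 36 bases, a length set for this search. They are 7.65% of those in Cxcl3 and 4.11% of those in Cxcl2, so some reads could be placed in either gene. Cxcl2 had the far higher count, with 101619 against 9960.1 in LPS 1 and 20479 against 443.1 in LPS 3. Misplaced reads could therefore weigh more on Cxcl3 and on its ratio to Cxcl2, which was not tested. The other pairs of the 9 genes shared none.

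**Figure D2:**
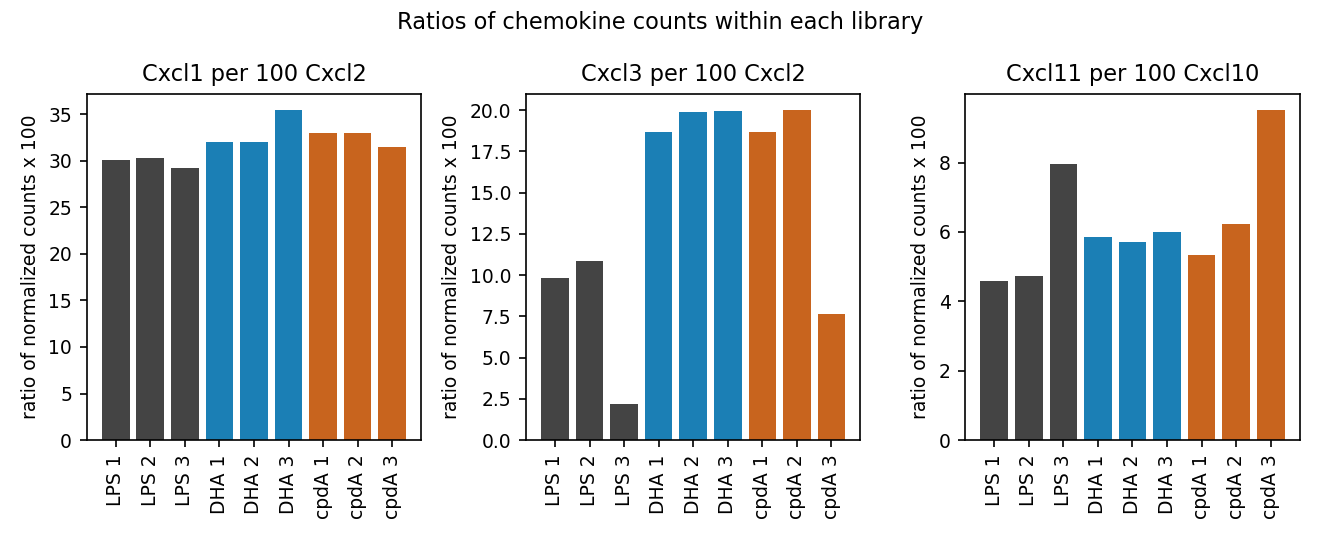
Ratio of normalized counts, times 100, in each library (bars, from 0) for Cxcl1 to Cxcl2, Cxcl3 to Cxcl2 and Cxcl11 to Cxcl10. Grey bars are LPS, blue DHA and orange cpdA libraries. The first ratio is 29.2 to 30.3 with LPS alone and 31.5 to 35.4 in the 6 pretreated libraries. The second is 18.7 to 20.01 in 5 of the 6 pretreated libraries against 2.16 to 10.8 with LPS alone. The third is highest in LPS 3 and cpdA 3.

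The promoters of these 3 genes are shown because their transcripts shared the low values of LPS 3 and cpdA 3 and because NF-kB is known to act there. The sequences are from RefSeq on GRCm38.p6, not the mm9 build of the authors' alignment, and a promoter was found for 6 of the 9 genes (Cxcl1, Cxcl2, Cxcl3, Cxcl9, Cxcl10 and Cxcl13). Each is the 150 bases before the transcription start, 5′ to 3′ on the plus strand, at chr5:90891095-90891244 for Cxcl1, chr5:90903749-90903898 for Cxcl2 and chr5:90785951-90786100 for Cxcl3. Capitals mark matches to the kB motif (GGGA, any 4 bases, then CC) on either strand.
Cxcl1: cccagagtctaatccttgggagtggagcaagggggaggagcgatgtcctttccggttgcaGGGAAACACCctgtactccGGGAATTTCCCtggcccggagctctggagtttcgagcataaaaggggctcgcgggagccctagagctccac
Cxcl2: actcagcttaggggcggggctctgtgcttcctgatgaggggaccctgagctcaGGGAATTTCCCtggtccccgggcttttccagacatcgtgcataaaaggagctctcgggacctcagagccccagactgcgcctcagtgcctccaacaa
Cxcl3: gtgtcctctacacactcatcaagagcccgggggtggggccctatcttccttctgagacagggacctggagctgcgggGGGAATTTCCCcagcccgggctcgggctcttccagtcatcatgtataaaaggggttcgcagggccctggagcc
All 3 hold the run GGGAATTTCCC, in which matches on the plus and the minus strand overlap, offset by 1 base. It starts 71 bases before the start of Cxcl1, 97 before that of Cxcl2 and 73 before that of Cxcl3. Cxcl1 has a further match, GGGAAACACC, from 90 to 81 bases before its start. All 6 promoters found held a kB match within the window searched, from 250 bases before to 50 after the start, as did 20.7% of 32851 RefSeq promoters. The letters of a TATA box (TATAAA) were in the windows of Cxcl3, Cxcl9 and Cxcl13 and in 13.6% of all promoters. They began 30 bases before the start of Cxcl3 and 46 before that of Cxcl13, but 195 before that of Cxcl9. This search does not count CATAAA, which the Cxcl1 and Cxcl2 sequences above hold.

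Cxcl5 (Entrez 20311), a CXCR2 ligand that epithelial and other non-immune cells also make, correlated with the mean of these 3 genes at -0.40 over the 9 libraries and at 0.77 over the 7 without LPS 3 and cpdA 3, a description without a test. It had 766.2, 571.6 and 1201.3 normalized counts in LPS 1 to 3, 1130.2, 954.0 and 1094.0 in DHA 1 to 3, and 1015.7, 1437.4 and 1867.0 in cpdA 1 to 3. LPS 3 and cpdA 3 were the highest of their groups. Its log2 change over all 9 libraries was 0.39 with DHA (SE 0.28, limma adjusted p = 0.541) and 0.79 with cpdA (SE 0.28, adjusted p = 0.265). It rose by 0.67 with DHA without LPS 3 and cpdA 3 (limma adjusted p = 0.0421), and its value with cpdA was 0.87 (adjusted p = 0.0527).

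Cxcl10 (Entrez 15945), also called IP-10, had normalized counts of 56126, 51819 and 109084 in LPS 1 to 3. It had 32689, 25402 and 29401 in DHA 1 to 3, and 32508, 35475 and 12886 in cpdA 1 to 3. LPS 3 was the highest of all 9 libraries and cpdA 3 the lowest, and the LPS group overlapped neither of the others. The log2 change over all 9 libraries was -1.23 with DHA (SE 0.41, limma adjusted p = 0.276) and -1.47 with cpdA (SE 0.41, adjusted p = 0.224). In the 7 libraries without those that stood apart, Cxcl10 fell by 0.89 with DHA (SE 0.12, limma adjusted p = 0.00177) and by 0.67 with cpdA (SE 0.13, adjusted p = 0.0269). In same-number pairs of cpdA and LPS libraries, a pairing the labels do not give, the log2 ratio was -0.79, -0.55 and -3.08.

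Cxcl9 (Entrez 17329), also called MIG, which depends strongly on interferon-gamma, had 1893.3, 1900.2 and 4458.1 normalized counts in LPS 1 to 3. It had 1125.7, 925.8 and 1145.2 in DHA 1 to 3, and 1206.2, 1379.1 and 598.5 in cpdA 1 to 3. The order of the libraries was like that of Cxcl10, with LPS 3 highest and cpdA 3 lowest. Its log2 change over all 9 libraries was -1.25 with DHA (SE 0.38, limma adjusted p = 0.261) and -1.34 with cpdA (SE 0.38, adjusted p = 0.230). It fell by 0.84 with DHA in the other 7 libraries (limma adjusted p = 0.00117) and by 0.56 with cpdA (adjusted p = 0.0339).

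Cxcl11 (Entrez 56066), also called I-TAC, had 2575.9, 2449.9 and 8682 normalized counts in LPS 1 to 3. It had 1917.1, 1450.1 and 1763.9 in DHA 1 to 3, and 1738.4, 2211.4 and 1226 in cpdA 1 to 3. Again the LPS group lay above both others without overlap. The log2 change over all 9 libraries was -1.16 with DHA (SE 0.44, limma adjusted p = 0.305) and -1.18 with cpdA (SE 0.44, adjusted p = 0.285). With LPS 3 and cpdA 3 left out it fell by 0.56 with DHA (limma adjusted p = 0.0256), and its value with cpdA was -0.36 (adjusted p = 0.336).

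Within a library, Cxcl10 stood at 2153 to 2964 normalized counts per 100 of Cxcl9. Cxcl11 stood at 4.59 and 4.73 per 100 of Cxcl10 in LPS 1 and 2, at 5.71 to 6.00 in DHA, and at 5.35 and 6.23 in cpdA 1 and 2. It was highest in LPS 3, at 7.96, and cpdA 3, at 9.51. The ratio of Cxcl11 to Cxcl10 thus moved with the libraries that stood apart, while Cxcl10 itself was high in one of them and low in the other.

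The promoters of Cxcl10 and Cxcl9 are shown for their match to interferon-response motifs or the lack of one. The sequence of Cxcl10 is the 250 bases before its start, chr5:92348890-92349139, and that of Cxcl9 the 150 bases before its start, chr5:92328080-92328229, both 5′ to 3′ on the minus strand of GRCm38.p6 from RefSeq. Capitals mark the kB motif on either strand and, in Cxcl10, the first run in capitals marks the core of an interferon-stimulated response element (GAAA, any 2 bases, then GAAA).
Cxcl10: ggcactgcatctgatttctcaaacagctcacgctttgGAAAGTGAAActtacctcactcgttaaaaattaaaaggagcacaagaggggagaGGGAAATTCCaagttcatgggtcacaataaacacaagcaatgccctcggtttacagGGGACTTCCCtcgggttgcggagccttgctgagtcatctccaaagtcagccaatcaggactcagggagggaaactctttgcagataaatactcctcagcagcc
Cxcl9: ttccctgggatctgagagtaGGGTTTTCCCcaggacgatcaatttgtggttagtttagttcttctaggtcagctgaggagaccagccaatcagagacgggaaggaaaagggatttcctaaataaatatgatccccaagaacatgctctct
In Cxcl10 the run GAAAGTGAAA lies 213 to 204 bases before the start, and kB matches begin 159 and 103 bases before it. In Cxcl9 a kB match on the opposite strand lies 130 to 121 bases before the start. The element's core was in the window of Cxcl10 alone among the 6 genes and in 3.44% of all promoters. The gamma-activated site TTCNNNGAA was in none of the 6 windows and in 8.30% of all promoters, which says only that these letters are not in these windows.

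Side by side, the neutrophil trio (Cxcl1, Cxcl2 and Cxcl3) and the interferon trio (Cxcl9, Cxcl10 and Cxcl11) were set against each other as mean log2(value + 1) per library. The neutrophil mean exceeded the interferon mean by 2.27, 2.26 and -2.09 in LPS 1 to 3, the last being a deficit. It exceeded it by 3.51, 3.23 and 3.32 in DHA 1 to 3 and by 3.50, 3.22 and 1.63 in cpdA 1 to 3. The group means of this difference were 0.81 ± 2.52 (SD, n = 3) for LPS, 3.35 ± 0.14 (SD, n = 3) for DHA and 2.78 ± 1.01 (SD, n = 3) for cpdA. All 3 DHA libraries lay above all LPS libraries, and cpdA 3 lay between LPS 3 and LPS 2. In LPS 3 the neutrophil trio was low and the interferon trio high, whereas in cpdA 3 both were low. Against LPS 1 and 2, LPS 3 differed by -2.30 (Cxcl1), -2.25 (Cxcl2) and -4.50 (Cxcl3) on the log2 scale, and by 1.23 (Cxcl9), 1.02 (Cxcl10) and 1.79 (Cxcl11). Against cpdA 1 and 2, cpdA 3 differed by -2.39, -2.33 and -3.67 for the neutrophil trio and by -1.11, -1.40 and -0.69 for the interferon trio, in the same gene order.

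**Figure D3:**
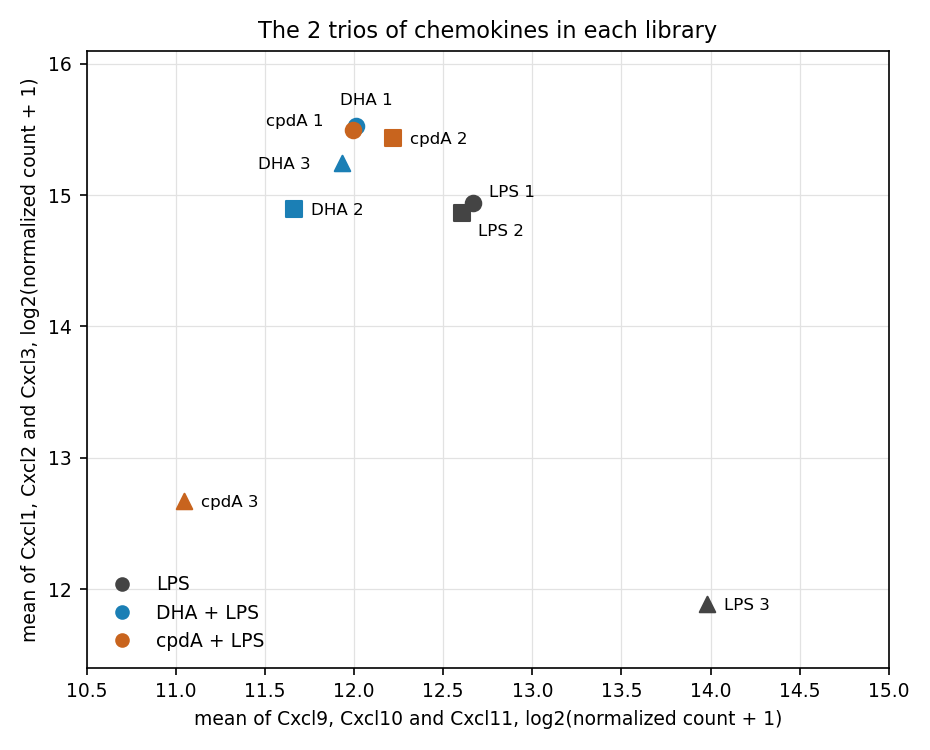
Mean log2(normalized count + 1) of Cxcl1, Cxcl2 and Cxcl3 (vertical) against that of Cxcl9, Cxcl10 and Cxcl11 (horizontal), 1 point per library. The 5 DHA and cpdA libraries other than cpdA 3 lie to the left of LPS 1 and LPS 2 at a like or higher neutrophil mean, LPS 3 lies at the lower right and cpdA 3 at the lower left.

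Cxcl13 (Entrez 55985), which stromal cells and peritoneal macrophages make, had 1 library far above the rest in the LPS and the cpdA groups. It had 1430.3, 1233 and 12479 normalized counts in LPS 1 to 3, 960.8, 864.9 and 1040.5 in DHA 1 to 3, and 918.4, 1151.2 and 12234 in cpdA 1 to 3. LPS 3 was 9.37-fold above the mean of LPS 1 and 2, and cpdA 3 was 11.8-fold above that of cpdA 1 and 2. The 3 DHA libraries lay below the 3 LPS libraries, and the cpdA and LPS groups overlapped. The log2 change over all 9 libraries was -1.56 with DHA (SE 1.08, limma adjusted p = 0.525) and -0.26 with cpdA (adjusted p = 0.937). Over the 7 other libraries, Cxcl13 fell by 0.48 with DHA (limma adjusted p = 0.0329), and its value with cpdA was -0.37 (adjusted p = 0.256). Dcn, a fibroblast gene, was also highest in LPS 3 (8705.5) and cpdA 3 (6328.2), against 3637.6 to 4204 in the other 7. Pdgfra (7062.2 and 8131.8) and Col3a1 (10045.9 and 6058.4) were highest in these libraries too. Col1a2 was highest in LPS 3 (14288.1) but had 9944.5 in cpdA 3, within the range of the others. Col1a1 had 8071.1 in LPS 3 and 6026.7 in cpdA 3, the lowest of the 9. The part of these genes in the Cxcl13 values was not tested.

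Cxcl16 (Entrez 66102), the membrane-bound chemokine, varied least within the LPS group, with 16344, 16558 and 16322 normalized counts. It had 14603, 10552 and 12409 in DHA 1 to 3, and 14751.5, 14383 and 8586.4 in cpdA 1 to 3. All 6 pretreated libraries lay below the 3 LPS libraries. The log2 change over all 9 libraries was -0.40 with DHA (SE 0.21, limma adjusted p = 0.417) and -0.43 with cpdA (adjusted p = 0.390). In the 7-library fit it was -0.41 (limma adjusted p = 0.0683) and -0.18 (adjusted p = 0.709). The proteases that release Cxcl16 from the membrane, Adam10 and Adam17, did not pass the test in either comparison, with changes of 0.24 and -0.01 for DHA.

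**Figure D4:**
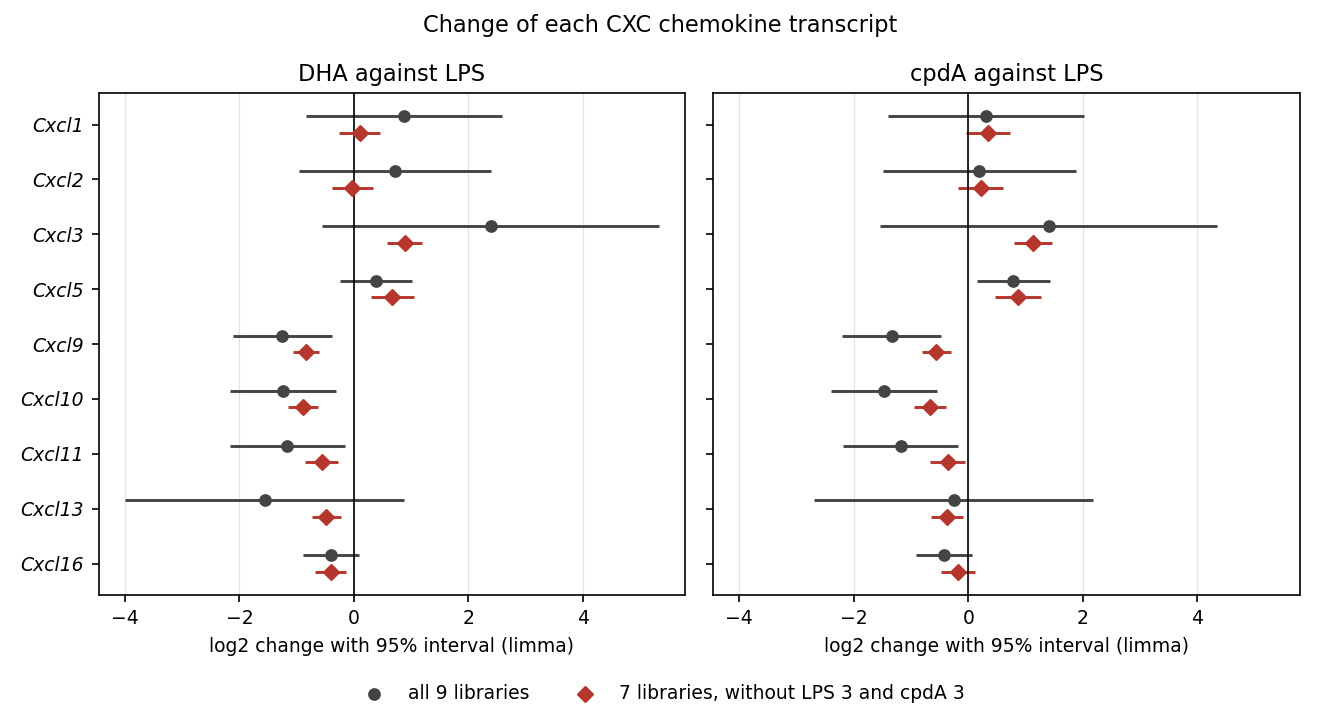
Log2 change of each chemokine with its 95% interval from limma, for DHA against LPS (left) and cpdA against LPS (right). Grey circles use all 9 libraries and red diamonds the 7 libraries without LPS 3 and cpdA 3. Intervals of Cxcl1, Cxcl2, Cxcl3 and Cxcl13 are the widest with all 9 libraries and narrow without those libraries, while values of Cxcl9, Cxcl10 and Cxcl11 stay below 0 in both.

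Counted over the set, limma called 0 of 9 chemokines for DHA against LPS, 0 of 9 for cpdA against LPS and 0 of 9 for cpdA against DHA with all 9 libraries. Of all genes tested it called 0.00720%, 0.00720% and 0%. At an unadjusted p under 0.05 the members counted were 3 (Cxcl9, Cxcl10 and Cxcl11), 4 (these and Cxcl5) and 0. Among the 13895 genes tested, 14.2%, 14.6% and 1.02% had such a p. edgeR's quasi-likelihood test on the recovered reads called 0 of 9 in each comparison, beside 0.0216% of all genes for DHA and 0.00720% for cpdA against LPS. DESeq2 called 2 for DHA against LPS (Cxcl9 and Cxcl10, beside 2.31% of all genes) and 3 for cpdA against LPS (Cxcl9, Cxcl10 and Cxcl11, beside 3.26%). Groups that did not overlap were seen for 1 member higher (Cxcl3) and 5 lower (Cxcl9, Cxcl10, Cxcl11, Cxcl13 and Cxcl16) with DHA, against 13.0% and 15.0% of all genes. For cpdA against LPS they were seen for 0 higher and 4 lower (Cxcl9, Cxcl10, Cxcl11 and Cxcl16), against 10.7% and 12.2% of all genes. Without LPS 3 and cpdA 3, limma called 2 higher and 4 lower with DHA, against 2.75% and 4.04% of all genes, and 1 higher and 2 lower with cpdA, against 0.712% and 0.885%. On the same 7 libraries edgeR called 6 with DHA, beside 8.33% of all genes, and 4 with cpdA, beside 2.09%. The DHA and cpdA comparisons share the LPS libraries, so they are not independent of each other. The median log2 change of the 9 members was -0.40 with DHA and -0.26 with cpdA, beside -0.00067 and -0.0043 over all genes.

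Between cpdA and DHA, whose doses differ, all 9 genes overlapped, beside 3.04% of all genes higher and 2.61% lower without overlap, and every limma adjusted p of the 9 was 0.999872. The log2 differences, cpdA minus DHA, were -0.55 (95% interval -2.26 to 1.16) for Cxcl1, -0.98 (-3.92 to 1.96) for Cxcl3, -0.24 (-1.16 to 0.69) for Cxcl10 and 1.30 (-1.14 to 3.74) for Cxcl13. Leaving out LPS 3 and cpdA 3, all 9 differences were positive, from 0.11 for Cxcl13 to 0.28 for Cxcl9, beside 54.3% of all genes. The shift was not particular to the chemokines. In that fit 16 of 16 genes of the NF-kB list and 17 of 19 of the interferon signalling list, both described below, were positive. Of the chemokines 0 of 9 passed the test, as did 0% of all genes. For Cxcl10 the interval was then -0.03 to 0.49.

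Levels per kilobase of the longest protein-coding transcript (GENCODE M21) let genes be compared only if that transcript is the one expressed and counted. This was not checked, and the order of genes depends on the lengths used, such as 1353 bases for Cxcl10 and 1859 for Cxcl2. On this scale Cxcl10 had the highest mean level in the LPS group, 53469 ± 23571 (SD, n = 3) normalized counts per kilobase. That place rested on LPS 3, with 80624 for Cxcl10 and 11016 for Cxcl2. In LPS 1 and LPS 2, Cxcl2 was first, with 54663 and 50195, and Cxcl10 had 41483 and 38299. By the mean over 3 libraries Cxcl2 followed with 38625 ± 24014 and Cxcl1 with 22653 ± 14231, and neighbours in that order overlapped, whereas Cxcl10 and Cxcl1 did not. Cxcl3 (6731 ± 5452), Cxcl16 (6079 ± 48.3), Cxcl13 (4389 ± 5597) and Cxcl11 (2890 ± 2253.2) came next, and neighbours in that order overlapped. Cxcl9 (952 ± 512) and Cxcl5 (537 ± 205) were lowest. Their ranges overlapped, though within each LPS library Cxcl9 was above Cxcl5, and Cxcl9 lay below Cxcl11 without overlap. In the DHA group Cxcl2 was first with 52164 ± 11954, then Cxcl1 with 33705 ± 7506, Cxcl10 with 21555 ± 2697 and Cxcl3 with 18519.7 ± 3595. Only the last pair of these neighbours had ranges that overlapped, and within each DHA library Cxcl10 was above Cxcl3. By their means the cpdA group had the same first 4 in the same order, Cxcl2, Cxcl1, Cxcl10 and Cxcl3, with Cxcl2 at 44808 ± 28324. That order did not hold in cpdA 3, where Cxcl2 (12181) was followed by Cxcl13 (10638), Cxcl10 (9524) and Cxcl1 (7482). Cxcl3 had 1699.5 there.

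Of the other CXC ligands looked up, 3 of 6 were in the table and were expressed at low levels. Pf4, a platelet and macrophage chemokine, had 358.1 to 538.1 normalized counts in LPS, 498.4 to 711.1 in DHA and 590.4 to 661.3 in cpdA, with limma adjusted p of 0.387 and 0.299 against LPS. Cxcl12, the stromal ligand of CXCR4, had 220.7 to 294.3 in DHA and reached 388.8 in LPS 3 and 599.4 in cpdA 3. Cxcl14 had 50.7 to 181.5 across the 9 libraries. Of the receptors, 8 of 9 were in the table and 7 passed the filter on low values. Cxcr2, the receptor of the neutrophil trio, had 69.7 to 153.5, and Cxcr3, that of the interferon trio, had 1 to 9 and did not pass the filter. Cxcr4 had 60.9, 84.1 and 65.5 in LPS 1 to 3, 91.4, 651.8 and 339.4 in DHA 1 to 3, and 101.6, 86.1 and 460 in cpdA 1 to 3. Its libraries were all higher than LPS in both groups, beside 13.0% of all genes with DHA and 10.7% with cpdA. The same held for Cxcr1 at low counts, with 6.1 to 9.2 in LPS, 13.4 to 30.4 in DHA and 9.8 to 57.9 in cpdA. The log2 change of Cxcr4 was 1.96 with DHA (limma adjusted p = 0.313) and 1.19 with cpdA (adjusted p = 0.497). Without LPS 3 and cpdA 3 it was 1.92 with DHA (limma adjusted p = 0.282) and 0.38 with cpdA (adjusted p = 0.941). Of 12 neutrophil markers 6 were in the table, and their sum was 7402.7 to 8588.8 in LPS, 5344.9 to 6645.3 in DHA and 3600 to 6397 in cpdA. Nearly all of it was Csf3r, which macrophages also express, while S100a8 had 44.4 to 380.6 and Ltf at most 7.9.

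Genes known to act upstream of these chemokines were looked up next. Of 16 genes of the NF-kB system and of transcript turnover, 0 passed the test in either comparison. With DHA 15 of 16 values were negative (median log2 change -0.21), and with cpdA 12 of 16 (median -0.24). Among all genes, 49.8% had a positive value with DHA and 49.4% with cpdA. The lowest of the 16 was Zfp36, which encodes tristetraprolin and speeds the decay of chemokine mRNAs. It was at -0.55 with DHA (limma adjusted p = 0.365) and -0.57 with cpdA, and at -0.31 and -0.096 without LPS 3 and cpdA 3. Nfkbia, the NF-kB inhibitor, had 17837 to 21039 normalized counts in LPS and 13684 to 20729 in DHA. In the 7-library fit, 0 of 16 passed in either comparison, and 14 of 16 values were negative with DHA (median -0.23) but 8 of 16 with cpdA (median -0.0046). Among all genes, 48.6% and 49.5% were then positive.

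Of 19 genes of interferon signalling, 0 passed the limma test with all 9 libraries. With DHA 17 of 19 values were negative (median -0.39), and with cpdA 18 of 19 (median -0.43). Among all genes, 49.8% had a positive value with DHA and 49.4% with cpdA. In 14 of 19 every DHA library lay below every LPS library, beside 15.0% of all genes, and in 11 of 19 every cpdA library did, beside 12.2%. Ifnb1, which encodes interferon-beta, had 21.7, 35.7 and 65.5 normalized counts in LPS 1 to 3, 11.1, 9 and 8.9 in DHA 1 to 3, and 10.6, 6.6 and 0 in cpdA 1 to 3. A count of 0 in cpdA 3 allows up to 3 reads, or 2.72 normalized counts, by counting error alone. Both pretreated groups lay below the LPS libraries, at levels of few reads, with a limma adjusted p of 0.358 for DHA and 0.224 for cpdA. Irf7, a factor that amplifies interferon responses, had 35739, 32798 and 43174 in LPS 1 to 3, 23250.5, 16213 and 18641 in DHA 1 to 3, and 24111, 23612 and 6825.3 in cpdA 1 to 3. With LPS 3 and cpdA 3 left out, the median was -0.39 with DHA and -0.17 with cpdA. In that 7-library fit 5 of 19 fell with DHA, beside 4.04% of all genes, at a limma adjusted p from 0.00465 to 0.0381. They were Irf7 (by 0.84), Usp18 (0.54), Tyk2 (0.42), Irf8 (0.42) and Ifng (1.27). Ifng rested on few reads, with 34.8 and 59.9 normalized counts in LPS 1 and 2 and 14.7 to 21.1 in DHA. In LPS 3, left out of this fit, it had 26.6. With cpdA 0 of 19 passed, beside 0.885% of all genes lower. Ifngr1, a chain of the interferon-gamma receptor, was the one gene of the list whose libraries were all higher than LPS in both groups, with 1017.3 to 1027.9 in LPS, 1136.9 to 1753.4 in DHA and 1115.1 to 2196.6 in cpdA.

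Genes most like each trio were ranked by Pearson correlation of log2 values over the 9 libraries among 11354 genes with a mean of at least 50 normalized counts. These correlations are a description, with libraries as points that share treatment and the 2 libraries that stood apart. For the neutrophil trio they were Mmp9 (0.997), Lad1 (0.996), St7 (0.993), Lphn2 (0.992) and Cdk1 (0.991), with 0.949, 0.976, 0.918, 0.919 and 0.783 over the 7 libraries. For the interferon trio they were Tnfsf10 (0.996), Slfn4 (0.996), Ifit3 (0.995), LOC100503235 (0.994) and 9930111J21Rik2 (0.994), and over the 7 libraries 0.980, 0.980, 0.990, 0.979 and 0.982. The last 2 of these belong to families of similar genes, and reads may be split among copies. The means of the 2 trios correlated at -0.35 over 9 libraries and at -0.34 over 7. Cxcl13 correlated with the neutrophil trio at -0.97 over 9 libraries and at -0.39 over 7, and with the interferon trio at 0.25 and 0.94.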

How the data were processed

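RNA from 9 libraries was measured by sequencing. Per the submitters' processing notes, the tools were CASAVA 1.8.2, Bowtie2 and DESeq with the mouse build mm9. No source used here names the counting program, its annotation or its strand setting, and overlapping or antisense genes cannot be told apart. The deposited values are a signal, gene counts that the authors divided by a size factor per library. The protocols given for growth and extraction concern other experiments and were not used. Whole reads were recovered from the steps of the values, and 99.9% or more of the values in each library were whole within 0.05. Genes with at least 10 in at least 3 libraries were kept (13895 of 15343). The main test was limma 3.58.1 in R 4.3.3 on log2(value + 1), with all 9 libraries sharing one spread, trend and robust moderation, and Benjamini-Hochberg adjustment over all genes kept at 0.05. A fold change on this scale understates that of low genes. edgeR 4.0.16 and DESeq2 1.42.0 on the recovered reads were alternatives, as were other pseudocounts, filters and scalings, a replicate block and each library left out. The fit was tested on simulated counts in which no library stood apart, so that test does not cover data with libraries like LPS 3 and cpdA 3. The deviations of LPS and cpdA libraries with the same number correlated (0.39, 0.23 and 0.44), and those numbers were taken as pairs. The labels give no pairing. LPS 2 with cpdA 1 (0.29) and LPS 1 with cpdA 2 (0.26) also correlated, as did cpdA 3 with DHA 2 (0.45). Deviations from a group mean of 3 libraries sum to 0, so the 3 same-number values are not independent. They cannot show whether the libraries were paired. For DHA against LPS (0.14, -0.07 and 0.02) and cpdA against DHA (0.41, -0.35 and 0.01) the numbers were not taken as pairs. The named genes are the 9 members, genes of the lists that passed a test or were at an end of their list, CXC ligands and receptors, and the 5 genes most like each trio. Other genes named, such as Dcn, Lyz2, Neat1 and Nfkbia, were chosen after their values were seen. The members and lists were chosen with earlier results of these data known.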

Additional observations from a re-analysis of the deposited data

How the results depend on the processing

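The called counts moved under these alternatives. For DHA against LPS, DESeq2 called 2 chemokines, the fits without LPS 3 and cpdA 3 called 6 by limma and 6 by edgeR, and leaving out 1 library at a time gave 0 to 1, the 1 being Cxcl10 without cpdA 3. For cpdA against LPS, DESeq2 called 3, the fits without LPS 3 and cpdA 3 called 3 by limma and 4 by edgeR, which added Cxcl5 (adjusted p = 0.0463), and leaving out 1 library at a time gave 0 to 0. For cpdA against DHA no setting called any.

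With a replicate block, limma called 0 of 9 in each comparison. In the 6 LPS and cpdA libraries with this pairing, the log2 change of Cxcl3 was 1.41 (SE 0.21, limma adjusted p = 0.375), and the block changed no call.

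Over all settings, Cxcl9, Cxcl10, Cxcl11 and Cxcl16 stayed negative in both comparisons with LPS, and Cxcl5 stayed positive. For DHA against LPS, Cxcl2 was -0.031 without LPS 3 and -0.031 without LPS 3 and cpdA 3, and leaving out 1 library at a time gave -0.031 to 1.12. For cpdA against LPS, leaving out 1 library at a time gave -0.45 to 1.11 for Cxcl1, -0.55 to 0.97 for Cxcl2, -0.094 to 2.63 for Cxcl3 and -1.45 to 0.82 for Cxcl13. For cpdA against DHA the same gave -0.97 to 0.25 for Cxcl1, -0.93 to 0.25 for Cxcl2, -1.59 to 0.24 for Cxcl3, -0.32 to 0.28 for Cxcl9, -0.50 to 0.23 for Cxcl10, -0.22 to 0.21 for Cxcl11 and -0.16 to 0.23 for Cxcl16. Without LPS 3 and cpdA 3 the values of these 7 genes were 0.25, 0.25, 0.24, 0.28, 0.23, 0.21 and 0.23 by limma, and 0.21, 0.21, 0.21, 0.26, 0.20, 0.20 and 0.20 by edgeR. Cxcl16 was 0.013 under quantile scaling, 0.0044 by edgeR and 0.0041 by DESeq2, and Cxcl11 was 0.012 and 0.011 by edgeR and DESeq2. The cause was not tested. With 3 libraries a group, of which 1 stands apart in LPS and in cpdA, differences smaller than the intervals given could not be detected.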
